A study of Rattus norvegicus with 3 samples.

Results

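Organic anion and cation carriers of the kidney were followed on 3 oligonucleotide arrays of rat kidney RNA. The 9 genes were Slc22a6, Slc22a8, Slc22a2, Slc47a1, Slc22a5, Slc22a12, Slco1a1, Slco1a6 and Slco4a1. They were found by the gene name in the scanner files or its synonym through the accession, and each was represented by 1 probe on 1 spot. They are 9 of 17910 named genes on the array. The rats were male spontaneously hypertensive rats of a Wistar background, a strain whose blood pressure rises with age, aged 8 to 10 weeks and weighing 280 to 330 g. The control group was given water by mouth. The low-dose group was given 10 mg/kg per day of HBMP, a hydrolysate of blue mussel protein that consists of peptides cut from the protein, and the high-dose group 20 mg/kg per day. Every group had 10 rats and was dosed for 28 days in about 3 mL each morning. RNA from 4 rats of a group was pooled, and each pool was hybridised with a single dye to 1 array, so the differences below have no replicate check and no test was possible. A difference counted when the probe stood above background on both arrays and differed by at least 2-fold.

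Proximal tubule cells secrete drugs, toxins and metabolites by coupling uptake from blood through carriers of the basolateral membrane to efflux across the brush border. Slc22 carriers exchange or conduct organic ions, Slc47a1 extrudes organic cations in exchange for protons, and Slco carriers (organic anion transporting polypeptides, Oatp) move bulky anions such as steroid conjugates, bile acids and thyroid hormone. Other Slc22 members work on the apical side and recover carnitine and urate from the filtrate. Several of these carriers are more abundant in male than in female rat kidney.

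On the low-dose array, Slco4a1 was 14.6-fold higher than on the water array, whereas Slc22a2 was 2.49-fold lower and Slco1a1 and Slco1a6 were 2.002-fold and 2.01-fold lower. On the high-dose array none of the 9 genes differed from water by 2-fold, against 0.85% of all genes upward and 0.152% downward. On the low-dose array these shares were 2.49% and 0.668%. The promoters of these 4 genes are shown because their transcripts differed most and because Slco1a1 and Slco1a6, which differed together, are near neighbours in the genome. Each runs 5′ to 3′ from 250 bases before to 50 bases after the annotated start, taken from RefSeq on the assembly GRCr8. The intervals were chr1:50710970-50711269 (− strand), chr4:176681943-176682242 (− strand), chr4:176838983-176839282 (− strand) and chr3:187936632-187936931 (+ strand). Capitals mark matches, on either strand, to AGAACA, a core bound by steroid hormone receptors, or to GGGCGG, the GC box.
Slc22a2: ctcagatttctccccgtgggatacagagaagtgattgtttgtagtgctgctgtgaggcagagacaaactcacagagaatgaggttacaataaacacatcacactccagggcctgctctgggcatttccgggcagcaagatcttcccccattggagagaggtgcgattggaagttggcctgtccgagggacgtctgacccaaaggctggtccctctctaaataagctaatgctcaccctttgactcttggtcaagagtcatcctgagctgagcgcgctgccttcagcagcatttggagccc
Slco1a1: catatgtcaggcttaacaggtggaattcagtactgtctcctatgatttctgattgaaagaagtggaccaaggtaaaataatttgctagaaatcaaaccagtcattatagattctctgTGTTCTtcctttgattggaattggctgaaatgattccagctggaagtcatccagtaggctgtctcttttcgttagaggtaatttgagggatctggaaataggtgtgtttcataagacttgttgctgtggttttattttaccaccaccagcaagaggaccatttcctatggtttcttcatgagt
Slco1a6: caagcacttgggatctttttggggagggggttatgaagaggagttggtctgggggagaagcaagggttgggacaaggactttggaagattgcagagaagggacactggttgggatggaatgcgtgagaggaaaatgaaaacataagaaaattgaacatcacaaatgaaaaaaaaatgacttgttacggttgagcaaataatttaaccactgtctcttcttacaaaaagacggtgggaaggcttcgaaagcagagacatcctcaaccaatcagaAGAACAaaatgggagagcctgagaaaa
Slco4a1: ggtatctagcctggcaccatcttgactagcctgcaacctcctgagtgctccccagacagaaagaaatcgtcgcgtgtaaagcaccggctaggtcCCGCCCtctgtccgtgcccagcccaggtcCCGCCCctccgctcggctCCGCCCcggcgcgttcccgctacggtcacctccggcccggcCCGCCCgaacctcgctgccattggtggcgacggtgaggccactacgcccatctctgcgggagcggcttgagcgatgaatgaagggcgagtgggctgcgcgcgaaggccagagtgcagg

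Both strands were also searched for the TATA box in the letters TATAAA. None of the 3 motifs contains another. AGAACA was present in the Slco1a1 and Slco1a6 windows, once in each, and 20.7% of all 33469 RefSeq promoter windows held it. The Slco4a1 window held 4 GC boxes in a sequence of 67.7% G and C, against a median of 51.7% over all windows, and 33.1% of windows held at least 1 GC box. None of these motifs occurred in the Slc22a2 window. Of the 9 genes, 7 had a promoter entry, Slc22a6 and Slc47a1 being those without. Among the 3 other windows, Slc22a5 held 3 GC boxes, and Slc22a8 and Slc22a12 held none of these motifs. TATAAA, found in 14.2% of all windows, occurred in none of the 7. A match describes letters in a window and not a bound site.

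All 9 probes stood above background on all 3 arrays and none had a saturated pixel. Across the arrays, 15317 to 16605 of 30365 probes (50.4% to 54.7%) stood above background, and 9632 named genes did so on all 3. Since no group had a second array, the only spread that could be measured was between replicate spots of other probes. For each carrier, probes printed at least 8 times within 1 log2 unit of its level gave the SD expected of a difference between single spots, quoted below as the spot SD. It is a technical spread within arrays that leaves out labelling, pooling and the differences between rats. All 3 arrays lay on 1 slide, where position and group cannot be told apart, and the further high-dose array listed in a header was not analysed here. Of 36 proximal tubule markers, 35 stood above background on all arrays. Of 9 hepatocyte markers, Apoa1, Cps1, Serpina1, Tat and Ttr stood above background on none, Alb on 1 array, Fgb on 2, and Apob and Hamp on all 3. Fgb, a fibrinogen chain, had a scaled intensity of 26.3 with water, 179.6 at the low dose and 16.4, below background, at the high dose.

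**Figure D1:**
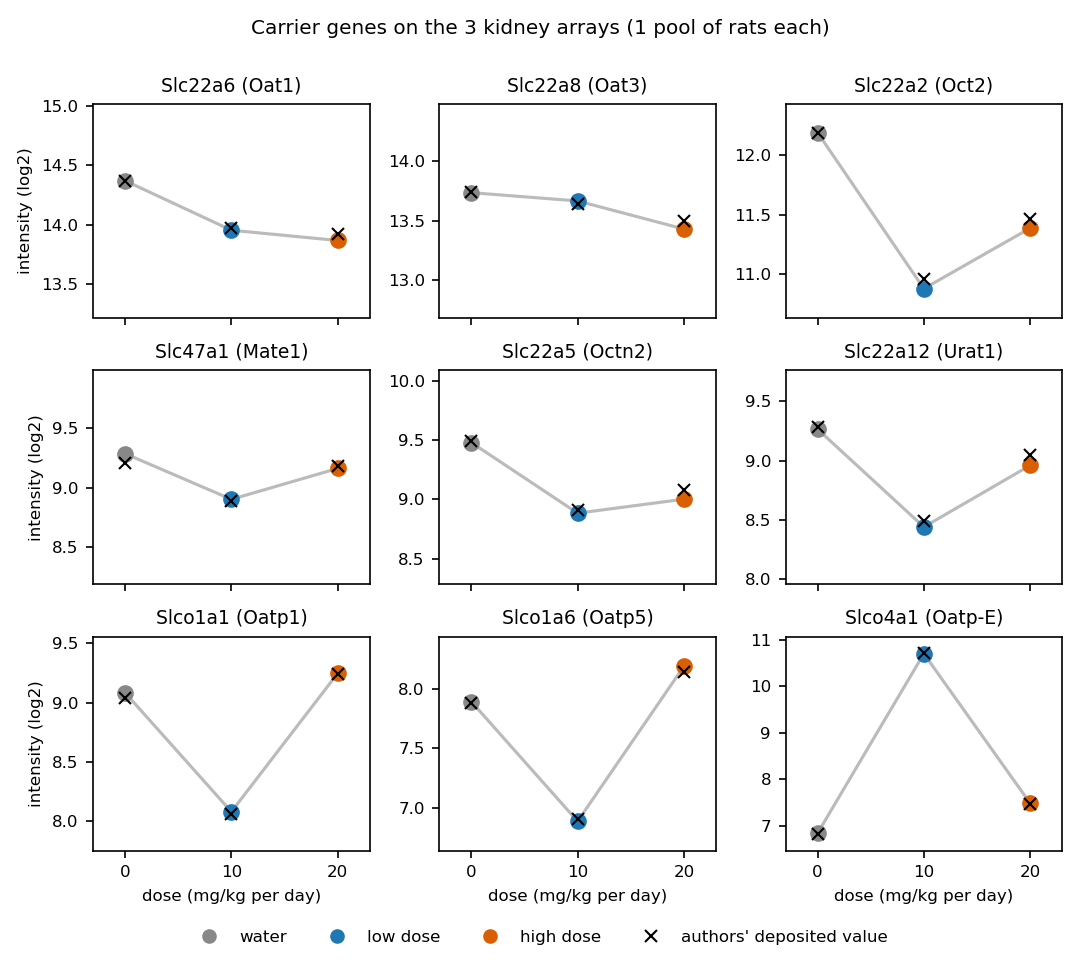
Scaled intensity (log2) of the 9 carrier genes by daily dose in mg/kg, with 1 point for each array of 1 pool of 4 rats (water, low dose, high dose) and crosses for the authors' deposited values. Of the 9, 6 were lowest on the low-dose array, as were 43.2% of all genes. Slco4a1 was highest there, as were 23.5% of all genes. The vertical scale of the Slco4a1 panel is wider than that of the others.

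Slc22a6 and Slc22a8 (Oat1 and Oat3) take organic anions, such as hippurate and many drugs, from blood in exchange for dicarboxylates. The Slc22a6 probe had a scaled intensity of 21172 on the water array, 15859 at the low dose and 14939 at the high dose. These were differences from water of -0.42 (log2, spot SD 0.15) at the low dose and -0.50 (spot SD 0.15) at the high dose. For Slc22a8 the intensities were 13642, 12999 and 11034 for water, low dose and high dose, which were differences from water of -0.07 (spot SD 0.14) at the low dose and -0.31 (spot SD 0.14) at the high dose. Both anion exchangers were highest with water and lowest at the high dose, and neither reached 2-fold in any comparison. These were the only carriers of the 9 that were lower at the high than at the low dose apart from Slco4a1, by -0.09 (spot SD 0.11) for Slc22a6 and -0.24 (spot SD 0.10) for Slc22a8. The genes lie side by side on chromosome 1, with no protein-coding gene between them in the RefSeq table. The scanner software left the Slc22a6 spot of the water array unflagged, whereas it flagged as good its other spots and all spots of the other 8 genes.

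Slc22a2 (Oct2) is the uniporter that brings organic cations such as creatinine and metformin into proximal tubule cells from blood, and in the rat it is higher in males and responds to testosterone. Its scaled intensity was 4676 on the water array, 1880 at the low dose and 2676 at the high dose. The low-dose pool was thus 2.49-fold lower than water (-1.31, spot SD 0.13) and the high-dose pool 1.75-fold lower (-0.81, spot SD 0.12). Among the 9725 named genes measured on the water and low-dose arrays, Slc22a2 had the 10th lowest difference between low dose and water, and among 9882 it had the 86th lowest between high dose and water. The high-dose pool was 0.51 (log2, spot SD 0.083) above the low-dose pool.

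Slc47a1 (Mate1), which carries organic cations out across the brush border, differed much less. It had a scaled intensity of 624 with water, 478 at the low dose and 573 at the high dose, differences from water of -0.38 (spot SD 0.12) and -0.12 (spot SD 0.11) at the low and high dose. The difference from water at the low dose was thus -1.31 for the basolateral cation carrier and -0.38 for the apical one. Slc47a2, the second exchanger of this type, stood above background on no array, and neither did Slc22a3, another organic cation carrier.

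Slc22a5 (Octn2) reabsorbs carnitine together with sodium. Its scaled intensity was 713 with water, 473 at the low dose and 513 at the high dose, which was -0.59 (spot SD 0.12) at the low dose and -0.48 (spot SD 0.11) at the high dose relative to water. Slc22a12 (Urat1) reabsorbs urate in exchange for anions. It had a scaled intensity of 615 with water, 348 at the low dose and 498 at the high dose. The low-dose pool was 1.77-fold lower than water (-0.82, spot SD 0.12) and the high-dose pool 1.24-fold lower (-0.31, spot SD 0.11). Both apical carriers had their lowest value on the low-dose array without reaching 2-fold, and Slc22a12 was 0.52 (log2, spot SD 0.093) higher at the high than at the low dose.

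Slco1a1 (Oatp1) is an apical carrier of organic anions that is induced by androgens in rat kidney. Its scaled intensity was 542 with water, 271 at the low dose and 607 at the high dose. The low-dose pool was 2.002-fold lower than water (-1.002, spot SD 0.12), the high-dose pool was 0.16 (spot SD 0.11) above water, and the high-dose pool was 2.24-fold higher than the low-dose pool (1.17, spot SD 0.092). Slco1a6 (Oatp5), a member of the family known from rat kidney, followed the same order, with 237 for water, 118 at the low dose and 292 at the high dose. It was 2.01-fold lower than water at the low dose (-1.01, spot SD 0.14), 0.30 (spot SD 0.13) above water at the high dose, and 2.47-fold higher at the high than at the low dose (1.31, spot SD 0.11). Both genes thus dipped on the low-dose array alone, and their high-dose values lay slightly above those with water. Among the 10127 named genes measured at both doses, Slco1a6 had the 15th and Slco1a1 the 25th highest difference between high and low dose.

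The Slco1a genes form a cluster on chromosome 4, where Slco1a3 is the single protein-coding gene between Slco1a1 and Slco1a6 in the RefSeq table. Of the 5 Slco1a genes on the array, 4 stood above background on all arrays, Slco1a1 and Slco1a6 among them. All 4 had their lowest value at the low dose, as did 43.2% of all genes. Slco1a3 had a scaled intensity of 3079 with water, 1539 at the low dose and 2570 at the high dose, and at -0.9999 it lay just short of 2-fold between low dose and water. Slco1a5 had 134 with water, 75.9 at the low dose and 162 at the high dose, which was -0.82 between low dose and water and 1.10 between high and low dose. Slco1a4 stood above background on 1 array. The files hold no probe sequences, so signal shared among these related transcripts was not tested.

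Slco4a1 (Oatp-E) transports thyroid hormone and other anions in many tissues and is not restricted to the proximal tubule. Its scaled intensity was 114 with water, 1661 at the low dose and 179 at the high dose. The low-dose pool was 14.6-fold higher than water (3.86, spot SD 0.13), the 5th highest difference of 9725 genes. The high-dose pool was 1.57-fold higher than water (0.65, spot SD 0.12) and 9.29-fold lower than the low-dose pool (-3.22, spot SD 0.099). The high-dose difference from the low dose was the second lowest of all 10127 genes. On the low-dose array the Slco4a1 spot had a signal-to-noise ratio of 216, and its pixels had a coefficient of variation of 17.2%. The same spot had a signal-to-noise ratio of 12.3 and a pixel variation of 23.7% on the water array. The authors' deposited table gave 6.81 for water, 10.71 at the low dose and 7.46 at the high dose (log2), with the same isolated peak. Their values come from the same spot on the same arrays, so they are not a second measurement.

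**Figure D2:**
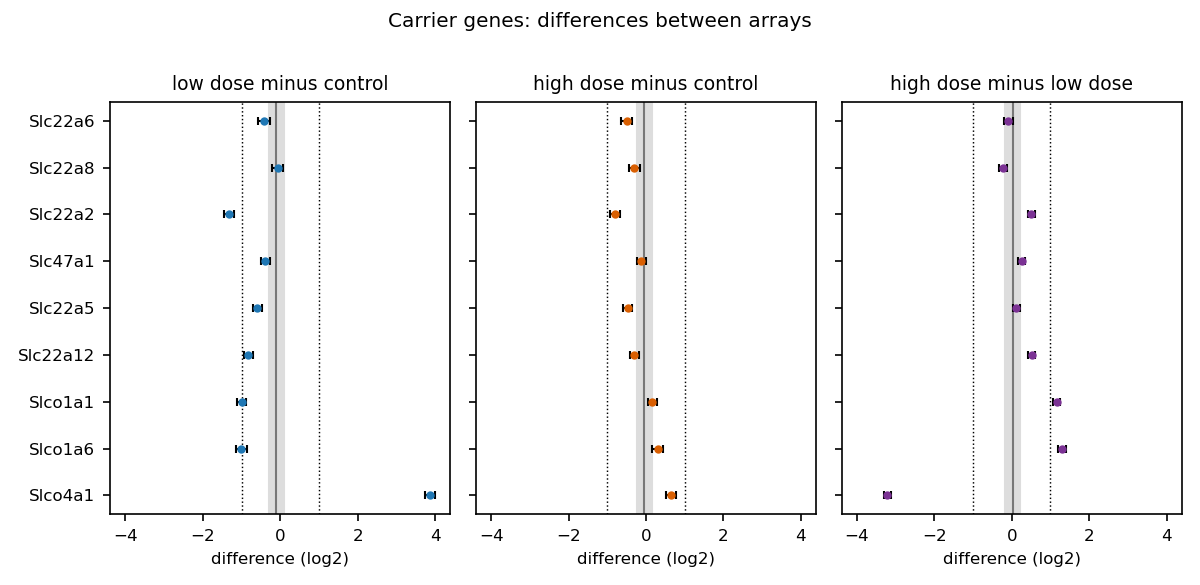
Difference in scaled intensity (log2) of the 9 carriers for low dose minus water, high dose minus water and high dose minus low dose, with bars of 1 spot SD. The grey band is the interquartile range over all named genes, the grey line their median and dotted lines mark 2-fold; Slco4a1 at 3.86 and Slc22a2 at -1.31 lie outermost at the low dose.

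Counted together, 8 of the 9 carriers were lower and 1 was higher at the low dose than with water, where 64.3% of all named genes were lower and 35.6% higher. Past 2-fold, 3 were lower, as were 0.668% of all genes, and 1 was higher, as were 2.49%. The number lower was 1 with normexp, with median scaling, with a weak corner of the array left out and in the authors' values, and 0 of 9 (0.0823% of all genes) when arrays were centred on the proximal tubule markers. The median difference of the 9 was -0.59, against -0.11 over all 9725 genes. Between high dose and water, 6 were lower and 3 higher (56.4% and 43.6% of all genes), and 0 passed 2-fold in either direction (0.152% of all genes lower, 0.85% higher). The median was -0.31, against -0.04 over 9882 genes. Between high and low dose, 6 carriers were higher and 3 lower (55.1% and 44.9% of all genes), and past 2-fold 2 were higher and 1 was lower (0.464% and 1.48% of all genes). Slc22a2, Slc47a1, Slc22a5, Slc22a12, Slco1a1 and Slco1a6 had their lowest value on the low-dose array, which made 6 of 9 where 43.2% of all genes did so. Slc22a6 and Slc22a8 were lowest at the high dose (32.3% of all genes) and Slco4a1 with water (24.6%). The highest value was with water in 6 of 9 (45.3% of all genes), at the low dose in 1 (23.5%) and at the high dose in 2 (31.2%). Both comparisons with water use the same array, so its own deviations enter each of them. Beside their spot SD, 8 of 9 low-dose differences from water were larger than 2 spot SD, Slc22a8 being the exception. So were 7 of 9 high-dose differences from water, Slc47a1 and Slco1a1 being the exceptions, and 7 of 9 between the doses. The share of all genes past 2 spot SD was not computed. Over all genes the lower quartile at the low dose was itself -0.28, so these counts are not read as a trait of the carriers.

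Most carriers studied here belong to the proximal tubule, so their differences are given beside the markers of that segment. At the low dose 32 of 35 proximal tubule markers were lower than with water, with a median of -0.39, and at the high dose 30 of 35 were, with a median of -0.30. Their summed intensity was 327124 with water, 264847 at the low dose and 266791 at the high dose. Past 2-fold at the low dose were Slc7a13, an amino acid carrier of the straight segment, at -1.29 and Mme, the brush-border protease neprilysin, at -1.10. Slc22a2 lay below all 35 markers in both comparisons with water, but the lowest marker was close. At the low dose Slc22a2 was at -1.31 and that marker at -1.29, and at the high dose they were at -0.81 and -0.75. Both gaps were smaller than the spot SD of Slc22a2 (0.13 and 0.12), so single spots do not resolve this order. Slco1a1 and Slco1a6 lay below 33 of the 35 at the low dose, and at the high dose Slco1a1 lay above 33 and Slco1a6 above 34. Between high and low dose both lay above all 35. Slc22a6, Slc22a8, Slc47a1, Slc22a5 and Slc22a12 also lay inside the markers' range, with 12, 31, 19, 7 and 6 markers below them at the low dose. Slco4a1 lay above all 35 there. A list for the straight proximal segment shares some genes with the 35. Of its genes, 9 of 11 were lowest at the low dose and 2 with water. Only Slc7a12 in that list passed 2-fold between the doses, at 4.01-fold higher at the high dose, above Slco1a1 and Slco1a6. Its scaled intensity was 210 with water, 90.3 at the low dose and 362 at the high dose. In pooled tissue RNA, fewer cells of a type and less RNA per cell cannot be told apart.

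Markers of other cells moved with the arrays too. The median over fibroblast and matrix genes was 1.43 at the low dose and 0.20 at the high dose relative to water, with 10 of 11 at least 2-fold higher at the low dose. Their summed intensity was 7217 with water, 21140 at the low dose and 8473 at the high dose, while Lum and Postn stood above background on no array. Injured tubule genes had medians of 1.63 and 0.53 at the low and high dose, with 8 of 12 past 2-fold at the low dose and sums of 5102, 22475 and 9651 for water, low dose and high dose. Adipocyte genes had medians of 2.81 and 1.47 over the 9 of 15 that were above background on all arrays. Their sums were 1476, 9496 and 4703 for water, low dose and high dose, with Lep and Plin1 above background on no array. Macrophage and dendritic cell genes had medians of 0.74 and 0.05, with 5 of 13 past 2-fold at the low dose, sums of 24194, 33860 and 22168 for water, low dose and high dose, and Mrc1 above background on no array. Principal cell genes of the collecting duct had medians of 0.73 and 0.57 at the low and high dose, with Slc14a2, a urea carrier, at 1.69 and 1.68 and Fxyd4 at 1.34 and 0.95. Of these 13 genes, 8 were higher and 5 lower than water at either dose, with Hsd11b2 at -0.44 and Scnn1a at -0.40 at the low dose. The sums were 22224, 43451 and 29776 for water, low dose and high dose. Of these, Aqp2 alone made 12205, 30805 and 18756. Thin limb and inner medulla genes, a list that also holds Slc14a2, had medians of 0.50 and 0.75 and sums of 7318, 14716 and 10879. Akr1b1, aldose reductase, was at 3.23 and 2.19 and S100a6 at 2.29 and 1.43. S100a6 is also in the injured tubule list, and it alone made 1777, 8706 and 4800 of both lists' sums for water, low dose and high dose. At the low dose 7 thin limb genes were higher than water and 2 lower, Aqp1 at -0.39 and Slc6a12 at -0.33. The median over thick ascending limb genes was -0.51 at the low dose and 0.09 at the high dose, and genes of the straight proximal segment -0.52 and -0.18. The part of these shifts in the values of Slco4a1 or of the other carriers was not tested.

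**Figure D3:**
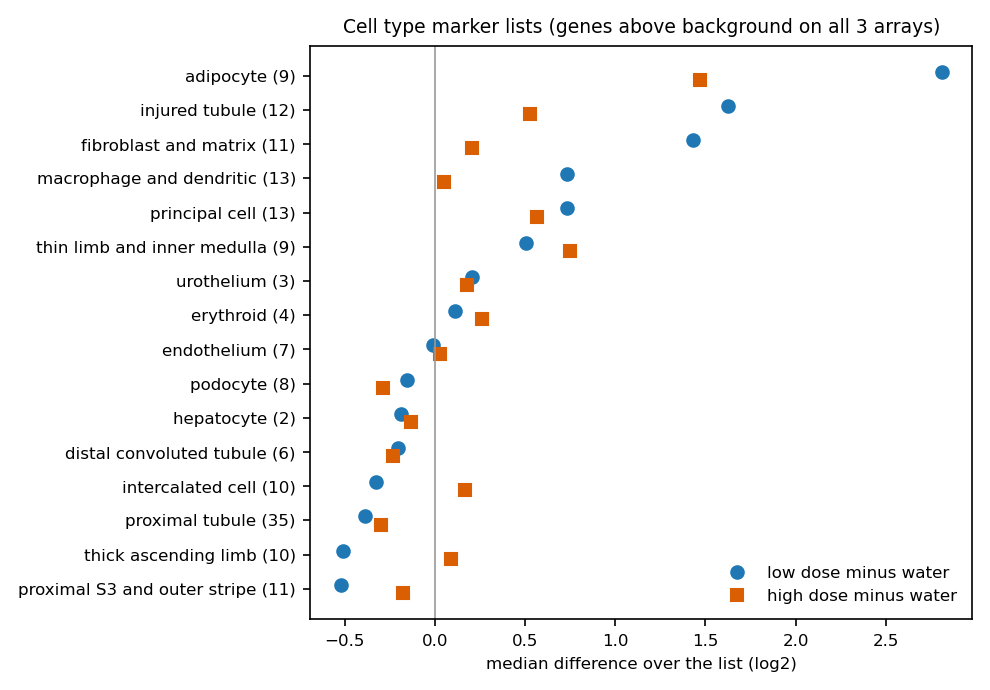
Median difference from water (log2) over each cell type marker list at the low dose (circles) and the high dose (squares), with the number of genes above background on all 3 arrays in brackets. Adipocyte, injured tubule and fibroblast lists lie highest at the low dose, and proximal tubule, thick limb and straight proximal segment lists lie lowest.

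Genes with the pattern closest to Slco4a1 were sought among 9623 named genes above background on all 3 arrays, by Euclidean distance over the 2 differences from water. The nearest was Lcn2, a lipocalin released by injured tubule cells, at a distance of 0.22, with differences of 3.70 at the low dose and 0.50 at the high dose. Its scaled intensity was 50.2 with water, 653 at the low dose and 71.1 at the high dose. Also among the nearest were Gpnmb, a glycoprotein of macrophages and other cells, with 3.63 and 1.02, Col1a1, a chain of fibrillar collagen, with 3.21 and 0.46, and Sfnl1 with 3.10 and 1.14. Nearest to Slc22a2 was Cyp2d5, a cytochrome P450, at a distance of 0.071, with -1.26 at the low dose and -0.77 at the high dose. Aspg, an asparaginase, had -1.26 and -0.91, and Mep1b, the brush-border protease meprin beta, had -1.25 and -0.66. The transcription factor gene Gcm1 had -1.46 and -0.82. With 3 arrays these distances describe the arrays and not a shared control.

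Among the other Slc22 genes, 14 were on the array and 10 stood above background on all arrays. All 10 were lower at the low dose than with water (median -0.53), as were 64.3% of all named genes (median -0.11), and 1 was past 2-fold. This was Slc22a24, an organic anion carrier of the family, with a scaled intensity of 1596 with water, 561 at the low dose and 960 at the high dose (-1.51 and -0.73 against water). Slc22a7 (Oat2) had 105, 55.7 and 93.9 for water, low dose and high dose, a difference of -0.91 at the low dose and -0.16 at the high dose. At the high dose 10 of 11 were lower (median -0.52), as were 56.4% of all genes (median -0.04), none by 2-fold, with Slc22a15 at -0.84 and Slc22a23 at -0.83 farthest from water. Of 13 other Slco genes, 4 were measured on all arrays. Beside Slco1a3 and Slco1a5, Slco2b1 was 0.19 and Slco3a1 0.34 above water at the low dose, and Slco3a1 was 0.72 above water at the high dose. Slco3a1 was dim, with scaled intensities of 50.2, 63.4 and 83.0 for water, low dose and high dose. Slco4c1, a carrier of the basolateral membrane, was dim too, with 42.2 with water, 16.3, below background, at the low dose and 26.5 at the high dose. It was at -0.68 at the high dose relative to water.

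The ABC efflux pumps, which use ATP to export anions and drugs, included 7 genes above background on all arrays. At the low dose 5 were lower and 2 higher than with water (median -0.31), where 64.3% of all genes were lower. At the high dose 6 were lower and 1 higher (median -0.53), where 56.4% of all genes were lower. Abcc5, an exporter of cyclic nucleotides and other anions, was past 2-fold at the low dose. Its scaled intensity, averaged over 10 spots, was 133 with water, 355 at the low dose and 158 at the high dose, which was 2.66-fold higher (1.41) at the low dose than with water and -1.16 at the high dose relative to the low dose. Abcg2, which exports urate and drugs, was lower than water by -0.77 at the low dose and -0.59 at the high dose. Abcb1b, a P-glycoprotein gene, was lower by -0.59 and -0.92, and Abcc4, an anion pump of the brush border, by -0.31 and -0.77. Abcc5, like Slco4a1, thus stood at least 2-fold higher on the low-dose array than on either other array.

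Partners in urate and carboxylate handling showed no 2-fold difference, and this list and the carnitine and regulator lists below are likewise read against 64.3% of all genes lower at the low dose and 56.4% at the high dose. At the low dose 13 of 15 were lower than with water (median -0.27), with Slc9a3, the sodium and proton exchanger of the brush border, at -0.84 and Xdh, which makes urate, at 0.66. At the high dose 11 of 16 were lower (median -0.20), with Slc26a1, a sulfate exchanger, at -0.75 and Slc2a6, a hexose carrier, at 0.74. Pdzk1, the scaffold protein that binds several apical carriers including Urat1, was lower by -0.36 and -0.10 at the low and high dose. Slc13a3, which supplies the dicarboxylate exchanged by Oat1 and Oat3, was lower by -0.40 and -0.56.

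In the carnitine system, 9 of 11 genes were lower at the low dose (median -0.31) and 8 of 11 at the high dose (median -0.28). Tmlhe, the first enzyme of carnitine synthesis, had a scaled intensity of 5157 with water, 2632 at the low dose and 3731 at the high dose, differences of -0.97 and -0.47 from water. Cpt1b, the muscle form of carnitine palmitoyltransferase 1 that is also made by adipocytes, was higher instead. It had 252 with water, 764 at the low dose and 534 at the high dose, which was 3.03-fold higher than water at the low dose and 2.11-fold higher at the high dose. Shmt1, which also takes part in serine and glycine metabolism, was at -0.52 and -0.65. Bbox1, the last enzyme of carnitine synthesis, stood above background on no array.

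Factors known to regulate carrier genes were measured for 17 of 22 listed. At the low dose 16 of 17 were lower than with water (median -0.36) without a 2-fold difference, and at the high dose 11 of 17 were lower (median -0.04). Hnf4a, which drives proximal tubule genes, was at -0.41 at the low dose and at 0.02 at the high dose. Prlr, the prolactin receptor, was at -0.58 at the low dose and -0.04 at the high dose. Bcl6, a repressor linked to male-dominant Oat1 and Oat3 in the rat, had 1308 with water, 933 at the low dose and 453 at the high dose, which was -0.49 at the low dose, -1.53 at the high dose and -1.04 between high and low dose. Sgk1, a kinase that raises the activity of several kidney carriers, was at -0.10 at the low dose and -0.97 at the high dose. Bcl6 was the single regulator past 2-fold, at the high dose relative to either other array.

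**Figure D4:**
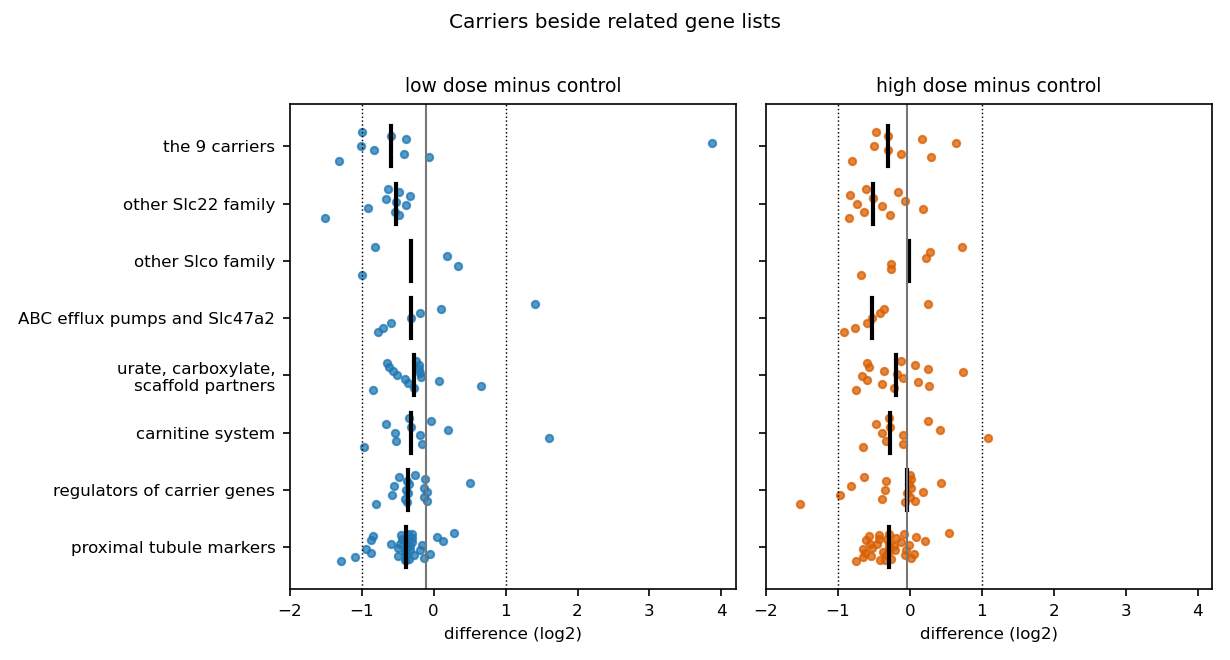
Differences from water (log2) at the low dose and the high dose for the 9 carriers, 6 related gene lists and the proximal tubule markers, with 1 point for each gene above background on both arrays and a black bar at each median. The grey line is the median of all named genes and dotted lines mark 2-fold; most points lie left of 0 at the low dose, while Slco4a1 stands apart at 3.86.

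The low-dose values of Slco1a1 and Slco1a6 lay at the 2-fold limit, so their call depended on the processing, whereas those of Slco4a1 and the differences between the doses did not. Of 12 alternative settings, 4 (the 2 filters on dim probes, non-uniform spots kept and the mean over probes) returned the same differences between low dose and water for the 9 carriers, each with 1 probe on 1 spot, and 8 moved them. Over these 8, Slco4a1 stayed between 3.33 and 4.25 (log2) above water at the low dose. Slc22a2 lay between -1.31 and -0.93 and passed 2-fold in 7 of 8. Slco1a1 lay between -1.01 and -0.62, passing in 1 of 8, and Slco1a6 between -1.10 and -0.62, passing in 2 of 8. Between high and low dose, Slco1a1 (1.04 to 1.19), Slco1a6 (1.01 to 1.31) and Slco4a1 (-3.31 to -2.88) passed 2-fold in all 12, of which 9 moved the value.

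**Figure D5:**
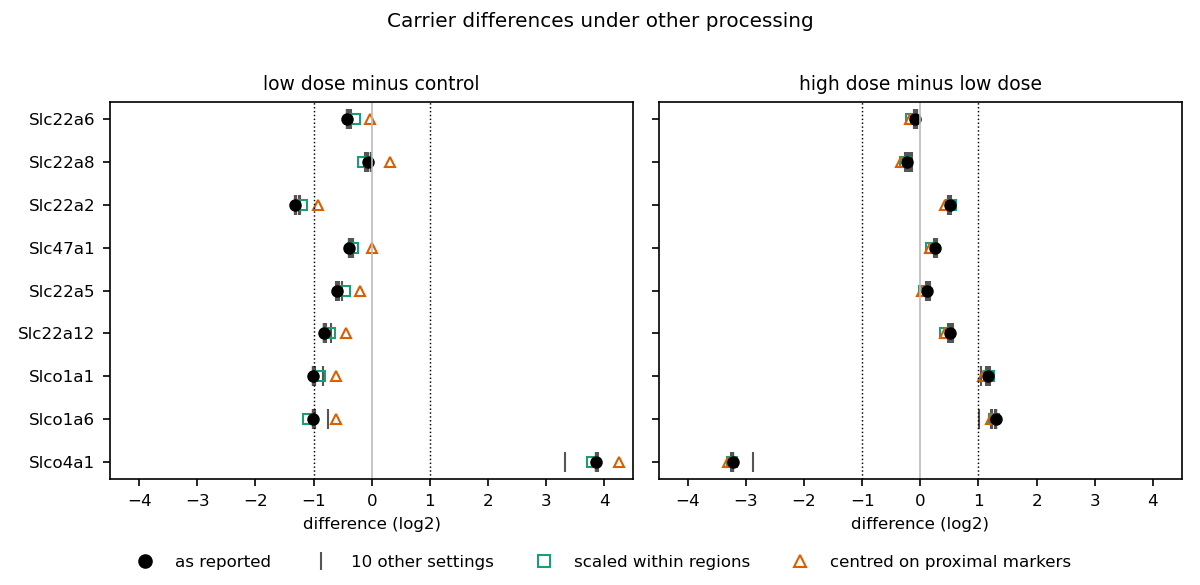
Difference (log2) of each carrier for low dose minus water and high dose minus low dose as reported (filled circles), under 10 other settings (ticks, 4 of which coincide with the circles at the low dose), scaled within regions of the array (squares) and centred on proximal tubule markers (triangles). Dotted lines mark 2-fold; the low-dose values of Slco1a1 and Slco1a6 straddle it, and those of Slco4a1 stay far above it.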

How the data were processed

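Kidney RNA of 3 groups, pooled from 4 rats each, was measured on 3 single-dye (Cy3) arrays, and groups were taken from the labels. The deposited scanner files hold the intensity of each spot, background-subtracted by the authors' software, with a signal-to-noise ratio and a flag as a score and saturated pixels as a percent, per the file headers (GenePix Pro 6.1.0.4). Agilent Feature Extraction is the tool that the submitters' processing notes give. The authors also deposited a table of normalized log2 values, whose scaling method was not stated, and whose columns all had a median of 4.77. The high-dose header names a mouse design, but its spots carry the same annotation as the other arrays.

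Control spots, bright spots not found by the software and spots with pixel mean and median over 1.5-fold apart were left out. A probe's spots were averaged, scaled to an equal 75th percentile (factors 1.14, 0.960 and 0.912 for water, low dose and high dose), floored at 1 and log2-transformed. Above background means a signal-to-noise ratio of at least 3 in 50% or more of the spots. The design had assumed Feature Extraction flags, which the files do not hold, so this ratio took their place. Genes were named through a RefSeq table of the assembly GRCr8. The files give no genome build, so the only coordinates are those of the RefSeq promoter table. A gene with several probes was represented by the one above background on most arrays, then the brightest.

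The members and gene lists were chosen with earlier results of these data known. Named genes are all 9 members, up to 4 genes past 2-fold per related list and comparison (otherwise the 2 farthest apart), up to 2 per marker list and the 5 nearest to Slco4a1 and Slc22a2. Some genes that meet the rule are not reported here. Gene names given for a background role or for markers never above background fall outside this rule and were chosen after their values were seen. So were Slc22a3, Pdzk1, Slc13a3, Hnf4a, Slco2b1, Slco4c1, Hsd11b2, Scnn1a, Aqp2, Aqp1 and Slc6a12. Analyses used Python 3.11.15, numpy 2.4.6, pandas 2.3.3 and, for normexp and quantile normalization, limma 3.58.1 in R 4.3.3, and were tested on simulated data. Settings tried instead were normexp (offset 50), quantile and median scaling, pixel medians, other filters, the mean over probes, leaving out a weak corner of the control array, the authors' values, scaling within regions and centring on proximal tubule markers.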

Additional observations from a re-analysis of the deposited data

How the results depend on the processing

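The main limit is 1 pooled array per group: spot SDs cover technical spread within arrays, and no setting replaces a second pool. Over the 12 alternatives, 4 of which left every carrier's low-dose difference from water as it was, no value past 2-fold changed sign, and the number of carriers past 2-fold was the same in all 12 in each direction and comparison, with 1 exception. This was the number at least 2-fold lower at the low dose than with water, which was 3 as reported and 2 or 3 where not named here. It was 1 with normexp, with median scaling, with the weak corner left out and in the authors' values, and 0 when arrays were centred on proximal tubule markers. Slco1a1 and Slco1a6 lie at the limit, and Slc22a2 was at -0.93 after that centring. The median difference of the 9 between low dose and water (-0.59) was -0.46 when scaled within regions of the array and -0.21 when centred on proximal tubule markers. The median over all genes (-0.11) moved as well, to -0.02 and 0.28 under these 2 settings. The median of the 9 between high dose and water (-0.31) was -0.0094 after that centring, where the median over all genes (-0.04) was 0.25. That centring, chosen after seeing the data like the scaling within regions, adds 0.39 at the low dose and 0.30 at the high dose to every gene, which places Slc22a8 at 0.32 above water at the low dose. Slco4a1, at an intensity of 114 on the water array, moved most with normexp, to 3.33. No paired analysis was possible because each group has 1 array, so the groups share fewer than 2 replicate numbers.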
